A study of Mus musculus with 15 samples.

Results

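The genes described here build, coat, remodel and clear the lipoproteins that liver releases into blood. They are Apob, Mttp, Apoa1, Apoa4, Apoc3, Apoe, Lipc and Pltp, 8 genes in all. Each was read from the probe sets annotated to its symbol alone, and a gene with several was read at the one of highest 15-array mean. By this rule 7 of the 8 were measured, among 18193 genes read the same way, through 14 probe sets. Lipc, which encodes hepatic lipase, was not analysed here.

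Whole liver RNA of adult male mice was measured on Affymetrix mouse oligonucleotide arrays, 15 in all, with 5 groups of 3 pools each. IUGR F1 pools (4 to 6) came from males whose calories were restricted by 50% in utero, and ON F1 pools (7 to 9) from males overfed during lactation. IUGR F2 (10 to 12) and ON F2 (13 to 15) pools came from male offspring of IUGR and ON mice. Control pools (1 to 3) combined first and second generation control males, which leaves no control arrays specific to a generation. The study asked whether expression patterns of the exposed males recur in the next generation through the father. Strain and exact age are not given in the sources used here, and the titles attach the number 3 to each pool without saying what it counts. Whether pools of a group drew on different litters is not stated, and the p-values therefore reflect only how these pools differed among themselves, which may be technical. In pooled whole liver, fewer cells of a type and less RNA per cell cannot be told apart.

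Very low density lipoprotein (VLDL) forms in hepatocytes when microsomal triglyceride transfer protein, encoded by Mttp, loads lipid onto apolipoprotein B while it is being made. High density lipoprotein (HDL) forms on apolipoprotein A-I, takes up lipid and surface material in blood, and is reshaped there by phospholipid transfer protein (Pltp) and hepatic lipase. Apolipoproteins C-III and E act on clearance, the first by slowing lipolysis and uptake of triglyceride-rich particles and the second as a ligand for lipoprotein receptors. Apolipoprotein A-IV, a product of intestine and of mouse liver, rides on chylomicrons and HDL.

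RefSeq (GRCm38.p6) held promoter windows for 7 of the 8 genes, Apoc3 being the one without an entry. Shown here are the windows of Pltp and Apoa4, whose levels varied most between pools, and of Apob. Apob varied little on the probe set read for it, but widely on its other probe set. Each window is the 250 bases before the annotated start, 5′ to 3′ on the gene's strand. Capitals mark 3 motifs searched on both strands: CAAAGNNCA, core of a nuclear receptor direct repeat, GGGCGG, the letters read by SP1-type factors, and TATAAA, a core promoter element. These letters were chosen after the windows had been read.
Pltp, chr2:164857709-164857958, minus strand: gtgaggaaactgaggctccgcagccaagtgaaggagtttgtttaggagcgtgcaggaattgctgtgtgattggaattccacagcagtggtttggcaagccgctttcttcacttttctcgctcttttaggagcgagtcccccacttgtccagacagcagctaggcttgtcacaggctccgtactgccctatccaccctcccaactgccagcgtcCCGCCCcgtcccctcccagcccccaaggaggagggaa
Apoa4, chr9:46240594-46240843, plus strand: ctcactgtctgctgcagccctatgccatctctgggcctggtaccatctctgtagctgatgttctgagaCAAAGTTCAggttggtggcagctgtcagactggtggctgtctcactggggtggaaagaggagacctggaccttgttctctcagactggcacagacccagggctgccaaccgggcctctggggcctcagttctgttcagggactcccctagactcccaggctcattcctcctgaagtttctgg
Apob, chr12:7977427-7977676, plus strand: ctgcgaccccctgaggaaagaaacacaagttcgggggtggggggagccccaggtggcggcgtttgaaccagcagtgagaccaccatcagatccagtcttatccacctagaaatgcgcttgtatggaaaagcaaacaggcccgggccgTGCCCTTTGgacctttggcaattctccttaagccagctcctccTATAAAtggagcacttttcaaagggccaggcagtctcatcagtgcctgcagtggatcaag
The Pltp window held GGGCGG on the opposite strand, 37 bases before the start. The Apoa4 window held the nuclear receptor core 182 bases before the start. The Apob window held this core on the opposite strand 103 bases before the start and TATAAA 60 bases before it. Among all 32851 windows of the same length, 5.49% held CAAAGNNCA, 32.7% held GGGCGG and 12.4% held TATAAA. The matches are descriptions of the letters in these windows, and no binding was measured.

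Levels are log2 RMA values, on which a step of 1 is a doubling. The brightest probe set of each array read between 14.61 and 14.68, which is the top of the scale against which bright genes are read. Hepatocyte markers were bright in every pool (Alb 14.41 to 14.49, Ahsg 13.09 to 13.38), apart from Ass1 at 5.31 to 6.34. Some pools stood apart in measures other than the lipoprotein genes. The median of 9 exocrine pancreas genes was 4.25 above control in ON F2 pool 13, 4 of them having a mean below 5 over all pools. That of 11 interferon response genes was 1.51 above control in ON F1 pool 8, and that of 11 skeletal muscle genes 0.61 above control in IUGR F1 pool 5. The log2 ratio of 3′ to 5′ signal for actin and Gapdh, which falls with longer RNA, was highest in pools 12 (1.87) and 8 (1.83) and 1.42 to 1.70 elsewhere. A clock score (mean z of Dbp, Tef and Per3 minus mean z of Arntl and Npas2) was 4.29 in pool 14, 2.90 in pool 2, 2.01 in pool 13 and 1.99 in pool 5, and at most 0.20 in the others.

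The lipoprotein genes differed widely in how much they varied between pools. Over the 15 pools the measured level of Apoa1 ranged within 1.07-fold, Apoe within 1.11-fold, Apoc3 within 1.13-fold, Apob within 1.29-fold, Mttp within 1.33-fold, Apoa4 within 1.76-fold and Pltp over 8.46-fold. Apoa1, Apoc3 and Apoe averaged 0.23, 0.51 and 0.93 log2 units below the brightest gene, where arrays can compress differences, and how far this lowers their spread was not tested. Pltp was lowest on average in both second generation groups, at 7.88 ± 0.34 in IUGR F2 and 8.09 ± 0.70 in ON F2 (SD, n = 3), against 9.52 ± 1.26 in control. None of the 7 genes passed an adjusted p of 0.05 (limma, Benjamini-Hochberg over 18193 genes) in any of 11 comparisons or in an F test over the 5 groups. At an unadjusted p of 0.05, Pltp passed in 4 of the 11 comparisons, in which 7.05% (IUGR F2 against control), 15.1% (ON F2 against control), 19.3% (ON F2 against ON F1) and 22.3% (second against first generation) of all genes did so. Apoa4 passed in 2, in which 10.1% (IUGR F2 against ON F2) and 8.43% (ON against IUGR) did.

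The share of all genes that passed gives the scale for this count. Against control it was 0.022% (4 genes) in ON F1 and 0% in each of IUGR F1, IUGR F2 and ON F2. Between generations it was 0.011% (2 genes) in the IUGR lineage and 1.43% (261 genes) in the ON lineage. It was 0.011% (2 genes) for IUGR F1 against ON F1, 0.0055% (1 gene) for IUGR F2 against ON F2, and 0.011% (2 genes) for the lineage by generation interaction. The F test called 0.187% (34 genes). A pair of comparisons was added after the Apoa4 and Pltp levels had been seen: ON against IUGR averaged over both generations, which called 0%, and second against first generation averaged over both lineages, which called 3.81% (693 genes).

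**Figure D1:**
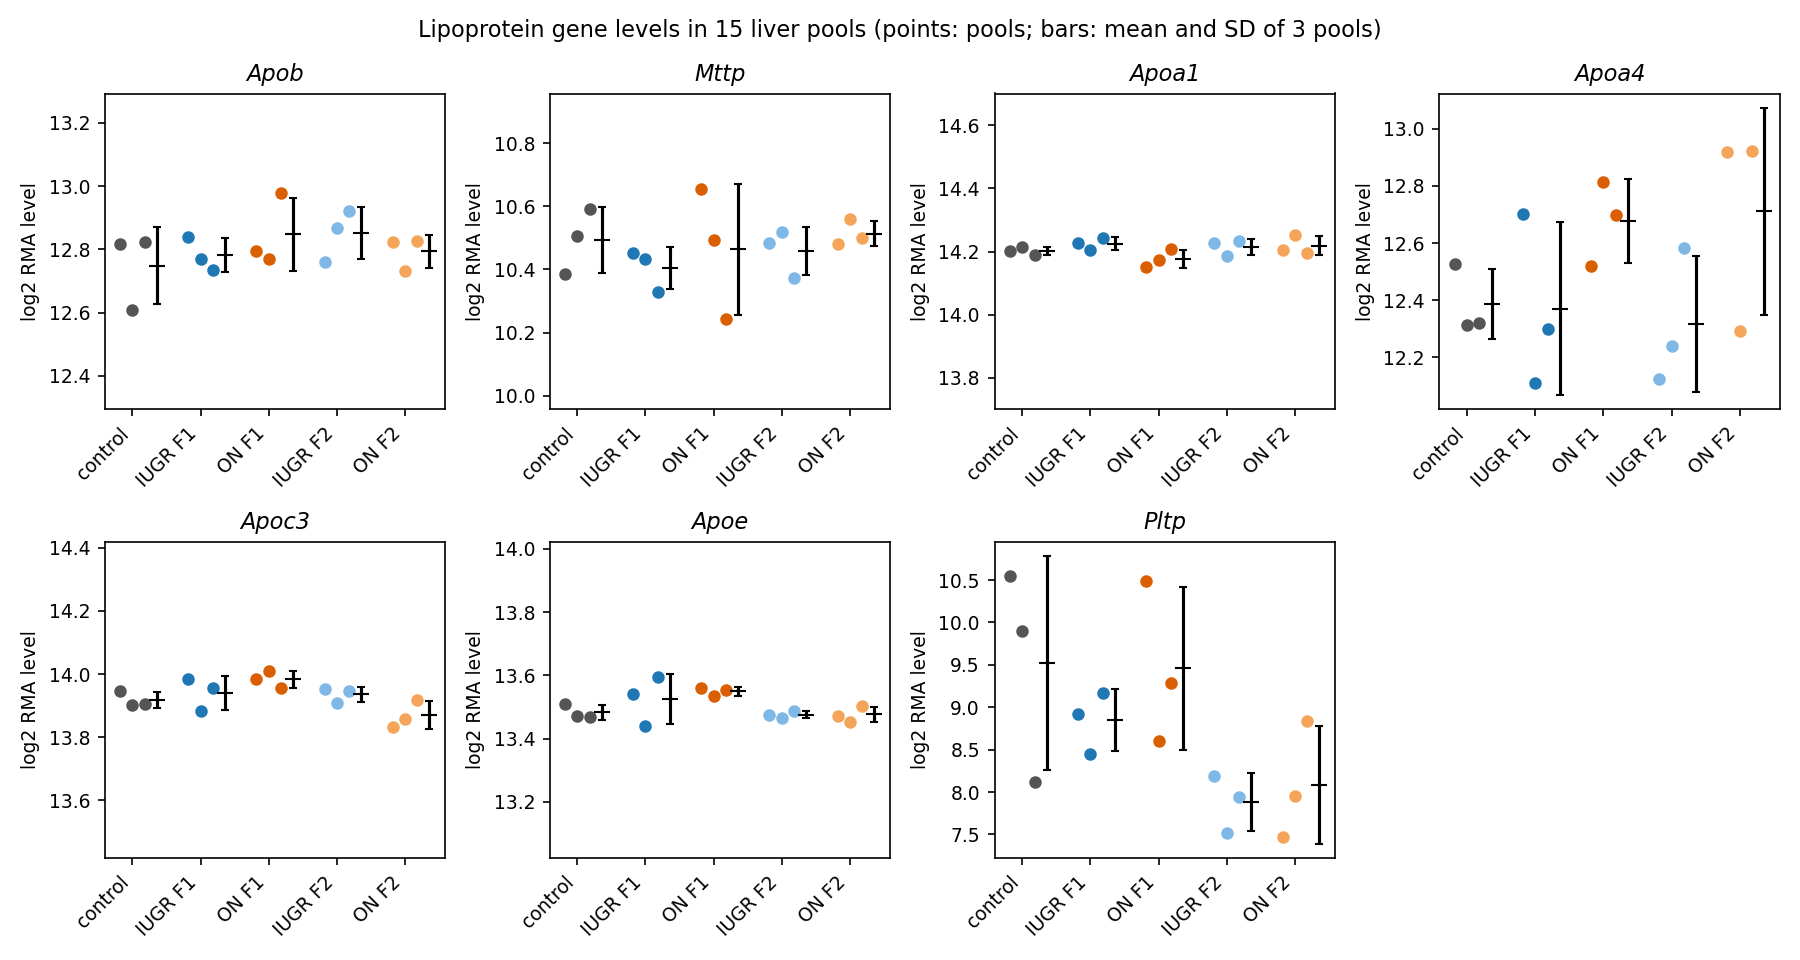
Log2 RMA level (vertical axis, at least 1 log2 unit in every panel) of the 7 measured lipoprotein genes in each liver pool (points) by group, with the mean and SD of 3 pools beside them. Apoa1, Apoc3 and Apoe, the brightest of the 7, spread least, whereas Pltp spreads from 7.47 to 10.55.

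Apob encodes the structural protein of VLDL. Its level was 12.82, 12.61 and 12.82 in the control pools, 12.84, 12.77 and 12.74 in IUGR F1, and 12.79, 12.77 and 12.98 in ON F1. It was 12.76, 12.87 and 12.92 in IUGR F2, and 12.82, 12.73 and 12.83 in ON F2. Every group overlapped control, and the lowest pool was a control pool. The differences from control ran from 0.03 ± 0.08 in IUGR F1 to 0.10 ± 0.08 in IUGR F2 (estimate ± SE), and the F test gave an adjusted p of 0.822 (limma). The SD over 15 pools was 0.087, and 6.92% of genes had a lower one.

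The other probe set annotated to Apob gave a different picture. It read 9.22, 8.69 and 8.94 in control, 8.28, 8.62 and 8.11 in IUGR F1, and 7.30, 7.34 and 8.86 in ON F1. It read 9.02, 9.39 and 8.35 in IUGR F2, and 7.96, 8.22 and 7.64 in ON F2. All pools of IUGR F1 and of ON F2 lay below all control pools on this probe set, while IUGR F2 overlapped control. Such separation from control was common, found in 14.5% of all genes for IUGR F1 and 21% for ON F2. Against control it differed by -1.11 ± 0.35 in ON F1 (limma adjusted p = 0.203 over all probe sets) and by -1.01 ± 0.35 in ON F2 (adjusted p = 0.245), with -0.61 ± 0.35 for IUGR F1 and -0.03 ± 0.35 for IUGR F2. None of these passed. Over 15 pools the 2 Apob probe sets had a Pearson r of 0.15, and 99.42% of probe sets had a lower SD than the second. Which part of the Apob transcript each probe set reads was not examined.

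Mttp encodes the transfer protein that lipidates apolipoprotein B. Its level was 10.38, 10.50 and 10.59 in control, 10.45, 10.43 and 10.33 in IUGR F1, and 10.66, 10.49 and 10.24 in ON F1. It was 10.48, 10.52 and 10.37 in IUGR F2, and 10.48, 10.56 and 10.50 in ON F2. The groups overlapped throughout, with both the highest and the lowest pool in ON F1. The difference farthest from 0 against control was -0.09 ± 0.10 in IUGR F1 (adjusted p = 0.845, limma), and the F test gave an adjusted p of 0.898. The other Mttp probe set correlated with it at an r of 0.07 over 15 pools, with ranges of 0.41 and 0.28 log2 units.

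**Figure D2:**
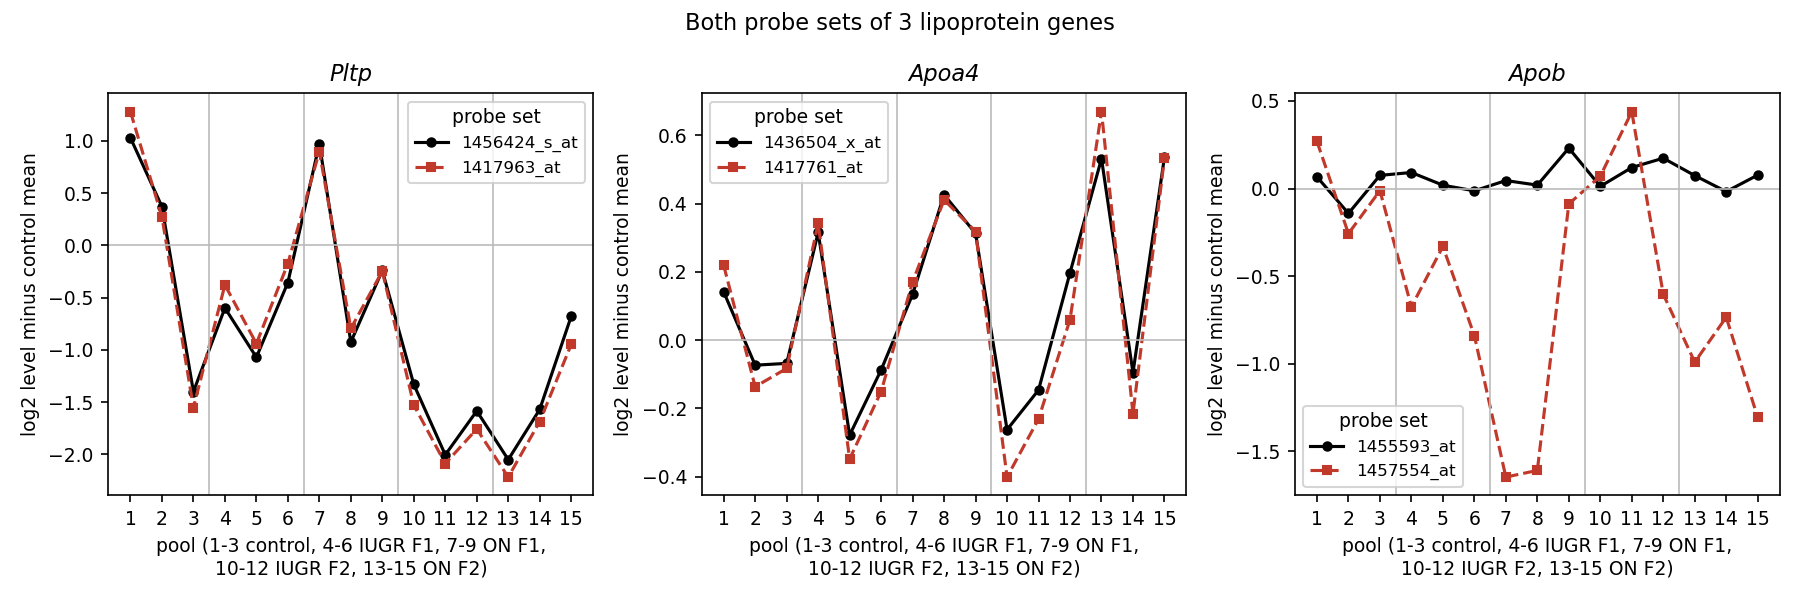
Log2 level minus the control mean (vertical axis) in pools 1 to 15 for both probe sets of Pltp, Apoa4 and Apob. The paired lines run together for Pltp and Apoa4 (r = 0.99 and 0.98) and apart for Apob (r = 0.15).

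Apoa1 encodes the main protein of HDL. It lay between 14.15 and 14.25 in all 15 pools, a range of 0.10 log2 units, and 0.0055% of genes had a lower SD. Control pools averaged 14.20 ± 0.01, IUGR F1 14.23 ± 0.02, ON F1 14.18 ± 0.03, IUGR F2 14.21 ± 0.03 and ON F2 14.22 ± 0.03 (SD, n = 3). ON F1 held the 2 lowest pools, and overlapped every other group. The F test gave an adjusted p of 0.958 (limma). The 4 Apoa1 probe sets followed each other at an r of 0.88 to 0.94 over pools. In ON F2 against control their differences were 0.02, -0.01, 0.00 and -0.01, not of 1 direction.

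Apoc3, whose protein restrains lipolysis and remnant uptake, lay between 13.83 and 14.01. It read 13.95, 13.90 and 13.91 in control, 13.98, 14.01 and 13.96 in ON F1, and 13.83, 13.86 and 13.92 in ON F2. All ON F1 pools were above all control pools and above all ON F2 pools. The differences were small, 0.06 ± 0.06 for ON F1 against control (adjusted p = 0.682) and -0.11 ± 0.06 for ON F2 against ON F1 (adjusted p = 0.331, limma), the latter with a 95% interval of -0.25 to 0.02. IUGR F1 (13.94 ± 0.05) and IUGR F2 (13.94 ± 0.02) overlapped control (13.92 ± 0.03).

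Apoe, the receptor ligand on remnants, lay between 13.44 and 13.60. It read 13.51, 13.47 and 13.47 in control, 13.54, 13.44 and 13.60 in IUGR F1, and 13.56, 13.53 and 13.55 in ON F1. It read 13.47, 13.47 and 13.49 in IUGR F2, and 13.47, 13.45 and 13.50 in ON F2. As with Apoc3, the ON F1 pools stood above all control and all ON F2 pools, by 0.07 ± 0.06 (adjusted p = 0.682) and 0.07 ± 0.06 (adjusted p = 0.560, limma) on average. Neither passed.

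Groups that do not overlap were common among all genes, so these counts need their background. Of the 7 genes, 2 did not overlap in ON F1 against control (Apoc3, Apoe), where 16.4% of all genes did not. In ON F2 against ON F1, 2 did not (Apoc3, Apoe) against 21.4% of all genes, and in IUGR F2 against IUGR F1, 1 did not (Pltp) against 19.2%. At the probe set read for each gene, none separated IUGR F1 (14.5% of all genes), IUGR F2 (13.4%) or ON F2 (21%) from control. None separated IUGR F1 from ON F1 (9.94%) or IUGR F2 from ON F2 (17.1%) either. The second Apob probe set, not counted here, separated IUGR F1 and ON F2 from control and IUGR F2 from ON F2. The second Pltp probe set, also not counted, separated F2 from F1 in both lineages.

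Apoa4 encodes an apolipoprotein of chylomicrons and HDL, and its mean level differed between lineages more than between generations, without passing the test. It read 12.53, 12.31 and 12.32 in control, 12.70, 12.11 and 12.30 in IUGR F1, and 12.52, 12.81 and 12.70 in ON F1. It read 12.12, 12.24 and 12.58 in IUGR F2, and 12.92, 12.29 and 12.92 in ON F2. Means were higher in both ON groups than in control and in both IUGR groups, but the groups overlapped, since ON F2 pool 14 was low and IUGR F1 pool 4 was high. Against control the difference was 0.29 ± 0.18 in ON F1 (adjusted p = 0.490), 0.32 ± 0.18 in ON F2 (adjusted p = 0.405), -0.02 ± 0.18 in IUGR F1 and -0.07 ± 0.18 in IUGR F2 (limma). Averaged over both generations, ON exceeded IUGR by 0.35 ± 0.13 (unadjusted p = 0.014, adjusted p = 0.475), a comparison chosen after the levels had been seen. With the clock score as a covariate, the ON F1 difference was 0.06 and the ON F2 difference 0.47. The second Apoa4 probe set followed the first at an r of 0.98. Intestinal markers other than Apoa4 were mostly dim, 8 of 10 having a mean below 5. Their summed linear level was 1175 to 2113 in control, 1264 to 1982 in IUGR F1, 1856 to 2399 in ON F1, 1289 to 1360 in IUGR F2 and 838 to 1508 in ON F2. Their median log2 difference from the control mean ordered the groups otherwise. It was -0.03 to 0.09 in control, 0.02 to 0.11 in IUGR F1 and 0.04 to 0.17 in ON F1. In IUGR F2 it was 0.04 to 0.10, and in ON F2 0.00 to 0.20. The part of these markers in the Apoa4 levels was not tested.

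Pltp transfers phospholipid from triglyceride-rich particles to HDL, and it was the lipoprotein gene with the widest range. It read 10.55, 9.89 and 8.12 in control, 8.92, 8.45 and 9.17 in IUGR F1, and 10.49, 8.60 and 9.28 in ON F1. It read 8.19, 7.52 and 7.94 in IUGR F2, and 7.47, 7.95 and 8.84 in ON F2. All IUGR F2 pools lay below all IUGR F1 pools. ON F2 overlapped ON F1 through 1 pool of each, and both second generation groups overlapped control through control pool 3. The control pools alone spanned 8.12 to 10.55, and 99.79% of all genes had a lower SD over the 15 pools.

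Against control, Pltp differed by -0.68 ± 0.54 in IUGR F1 and by -0.06 ± 0.54 in ON F1. The second generation differences were -1.64 ± 0.54 for IUGR F2 and -1.43 ± 0.54 for ON F2. They correspond to 0.321 and 0.370 of the control level. Their unadjusted p-values were 0.0089 and 0.019, and their adjusted p-values 0.647 and 0.242 (limma), so neither passed. Without control pool 3 these differences were -2.34 and -2.13, and without control pool 1 they were -1.13 and -0.92, none of them passing. Within lineages, F2 against F1 gave -0.97 ± 0.54 for IUGR (adjusted p = 0.523) and -1.37 ± 0.54 for ON (adjusted p = 0.187). The lineage by generation interaction was 0.40 ± 0.77 (adjusted p = 0.934), with a 95% interval of -1.24 to 2.05 that leaves the lineages unresolved.

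Averaged over both lineages, second generation pools were lower in Pltp than first generation pools by a difference of -1.17 ± 0.39 (unadjusted p = 0.0086, adjusted p = 0.0989, limma), a comparison chosen after the levels had been seen. It passed in 1 of 24 alternatives (adjusted p = 0.0477 without control pool 3, which changes only the estimate of spread). The second Pltp probe set followed the first at an r of 0.99 and gave -1.43 ± 0.40 (adjusted p = 0.0642 over all probe sets). On that probe set F2 lay wholly below F1 in both lineages. F2 and F1 did not overlap in 19.2% of all genes for IUGR and 21.4% for ON. Control pools of the 2 generations were combined, so this generation difference has no control pair to set beside it.

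Summed levels of markers of other liver cells were set beside Pltp, with no test between groups. The summed linear level of 11 lymphocyte markers, 5 of them with a mean below 5, was 1510 to 2467 in control, 1193 to 1619 in IUGR F1, 898 to 1683 in ON F1, 625 to 809 in IUGR F2 and 848 to 2440 in ON F2. It was thus lower in all IUGR F2 pools than in all control and IUGR F1 pools, while ON F2 overlapped both. That of 10 sinusoidal endothelial markers, 2 with a mean below 5, was 1495 to 1725, 1650 to 1891, 1615 to 1820, 1271 to 1717 and 1444 to 2011 in the same order, so that the groups overlapped. That of 12 Kupffer cell and macrophage markers, 2 with a mean below 5, was 1801 to 2121 in ON F1 and 2197 to 2996 in ON F2, higher in all ON F2 pools, against 1752 to 2679 in control, 1495 to 1564 in IUGR F1 and 1448 to 2312 in IUGR F2. The summed level of 7 cholangiocyte markers, 5 with a mean below 5, was 319 to 391 in ON F1 and 215 to 308 in the other groups. That of 11 stellate cell markers, 1 with a mean below 5, was 2997 to 4372 over all pools, and the groups overlapped. Over 15 pools Pltp had a Pearson r of 0.55 with the median of the lymphocyte markers, and 0.08 within groups. With the median of the endothelial markers the r was 0.60, and 0.56 within groups. With that of the Kupffer cell and macrophage markers it was -0.36, and -0.71 within groups. For the cholangiocyte markers it was 0.10, and -0.25 within groups, and for the stellate cell markers 0.39, and -0.04 within groups. These r values are descriptions, and the part of these cells in the Pltp levels was not tested.

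**Figure D3:**
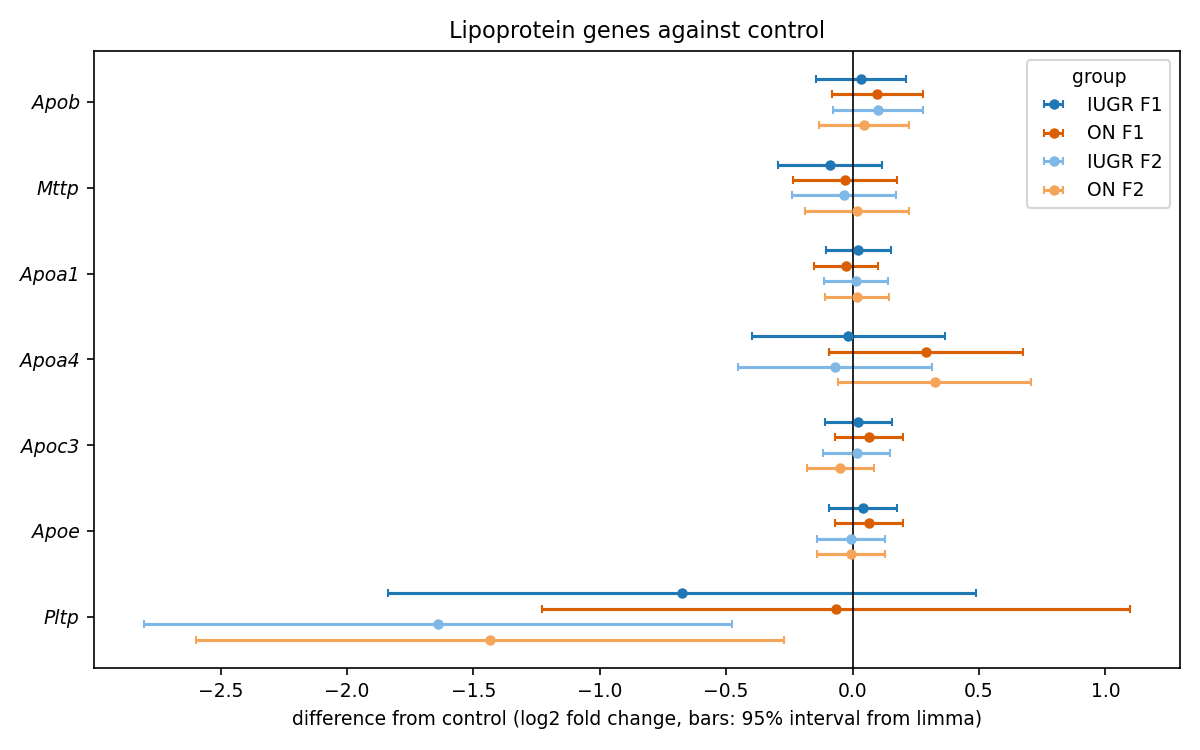
Difference from control in log2 fold change (horizontal axis) for each measured lipoprotein gene in the 4 exposed groups, with 95% intervals from limma. The Pltp estimates for IUGR F2 (-1.64) and ON F2 (-1.43) have intervals below 0 before adjustment, and those of every other gene include 0.

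Over 15 pools the genes mostly did not vary together. Of 21 pairs, 9 had a positive and 12 a negative Pearson r, and 1 passed a permutation test adjusted over the pairs. Apoc3 and Apoe had an r of 0.73 (permutation p = 0.0018, adjusted p = 0.0378) and a Spearman rho of 0.84 (permutation p = 0.00018, adjusted p = 0.00378). The r was 0.67 on deviations from group means, 0.75 without the 2 pools farthest from the median of Apoc3, and 0.70 to 0.79 leaving out each pool in turn. The permutations ignored the groups, so these p-values also reflect differences between groups, and the r on deviations was not tested. Apoe and Pltp had an r of 0.54 (adjusted permutation p = 0.382) and a rho of 0.62 (adjusted permutation p = 0.161).

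Apoc3 was also lower in pools with a high clock score. Its r with the score was -0.82 (permutation p = 0.00011, adjusted over 14 relations p = 0.00154) and its rho -0.86 (adjusted permutation p = 0.00154). The r was -0.67 within groups and -0.86 without the 2 pools of the most extreme score. Apoe had an r of -0.60 with the score (adjusted permutation p = 0.129) and a rho of -0.63 (adjusted permutation p = 0.0978). The score was at most -1.59 in all ON F1 pools and -0.48 to 4.29 in ON F2. Score and group therefore cannot be told apart in the comparison in which Apoc3 separated. With the score as a covariate the Apoc3 difference between ON F2 and ON F1 was -0.06 and that of Apoe -0.02. The part of the clock in these differences was not tested. No lipoprotein gene passed against the 3′ to 5′ ratio, with r between -0.33 and 0.38. Apoc3 also had an r of -0.62 with the hepatocyte median, 0.60 with the interferon median and -0.55 with the exocrine pancreas median. Within groups these were -0.46, 0.42 and -0.39, all without a test. Its highest level was in pool 8 (14.01) and its lowest in pool 13 (13.83), the pools that stood apart in interferon and pancreas genes.

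**Figure D4:**
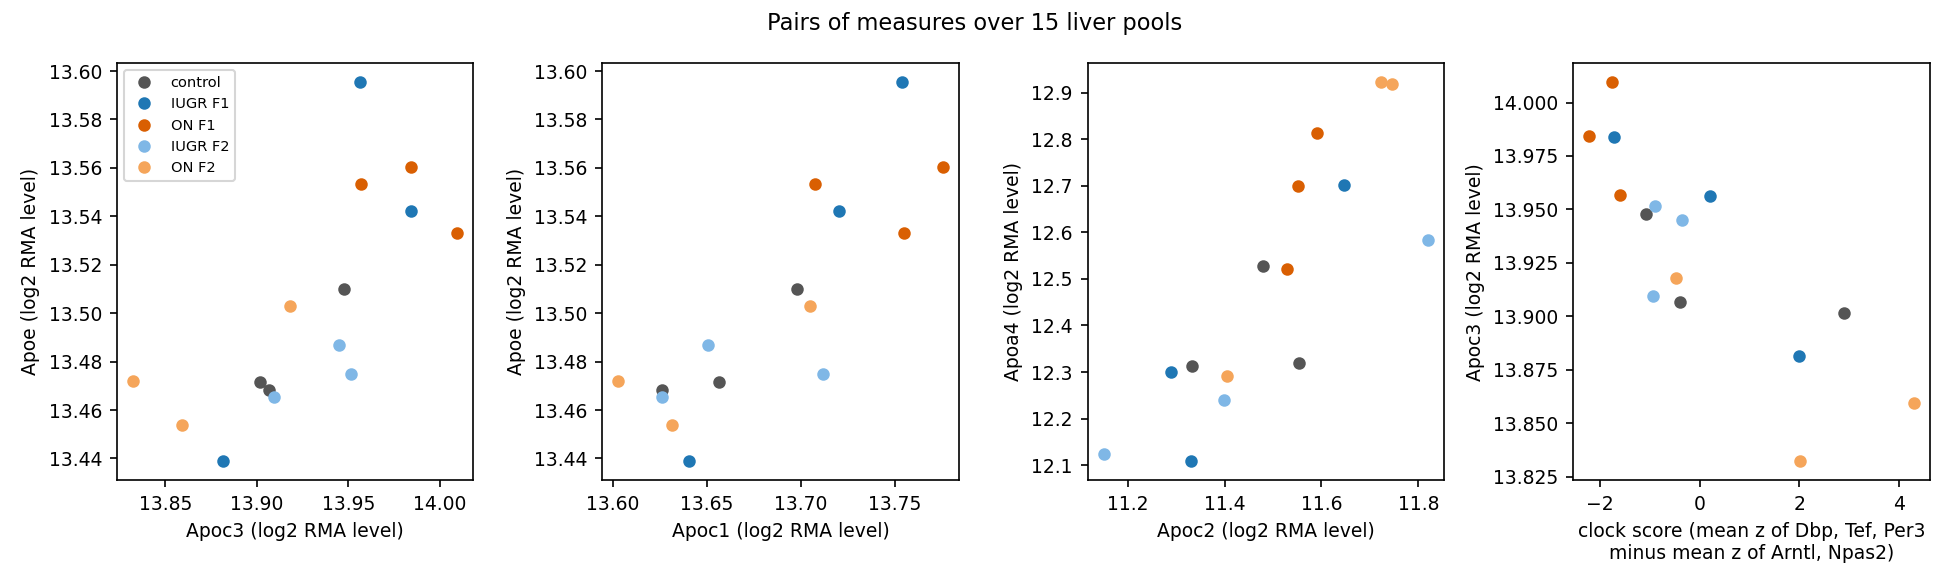
Apoe against Apoc3 and Apoc1, Apoa4 against Apoc2 (log2 RMA levels) and Apoc3 against the clock score, with 1 point per pool coloured by group. Apoc3 and Apoe rise together across pools (r = 0.73), and Apoc3 is lower where the clock score is higher (r = -0.82).

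Among 7808 other genes with a mean level of at least 6, the 3 most like each lipoprotein gene by Pearson r over 15 pools were named by rule, as a description with no test. Pltp was most like Acaa1b (0.92), a thiolase, Rdh16 (0.90), a retinol dehydrogenase, and Pex3 (0.89). Rdh16 ranged from 6.21 to 9.21 over the pools. Apoa4 was most like Apoc2 (0.83), the activator of lipoprotein lipase, then Oaz2 (0.79) and Nlrx1 (0.79). Apoc3 was most like Dennd1a (0.95), Plin2 (0.90), which coats lipid droplets, and Srr (0.89). Apoe was most like Ssbp3 (0.90), Msh3 (0.86) and Pcbd1 (0.86).

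Apob was most like Ccar2 (0.81), Stat5a (0.80) and Gsdmd (0.78). Mttp was most like Eif2s3y (0.86), Vdac3 (0.86) and Fbxl5 (0.85). Apoa1 was most like Slc26a11 (0.78), Cyp2d22 (0.77) and Itih2 (0.75). These r values are the highest of many, over pools that share groups and arrays.

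Partners of these genes were followed through 6 lists: other apolipoproteins (13 of 13 measured), VLDL assembly and secretion partners (19 of 20), HDL formation and remodelling (12 of 12), receptors and uptake (13 of 16), lipoprotein lipase and its regulators (15 of 17) and regulators of lipoprotein genes (23 of 26). Against control, no gene of any list passed in either direction in any group. In IUGR F2 against IUGR F1 none passed either. The list medians there were 0.03, -0.05, -0.04, -0.16, -0.13 and -0.001 in the order given, beside -0.03 over all genes. In ON F2 against ON F1, 1 VLDL partner fell, and 1 gene of the lipase list rose and 1 fell. These 3 are 3.26% of the 92 partners measured, beside 1.43% of all genes. The list medians in that comparison were 0.00, -0.04, -0.02, -0.02, -0.05 and 0.08 in the order given, beside -0.03 over all genes and -0.05 over the 7 lipoprotein genes. In IUGR F2 against control, 12 of 13 receptor and uptake genes and 16 of 19 VLDL partners had a negative difference. Their medians were -0.15 and -0.09 beside -0.01 over all genes, where 46.55% of differences were positive. These were the most one-sided lists of that comparison, and none of their genes reached an unadjusted p of 0.05 in it (limma). In ON F2 against control, 6 of 13 receptor and uptake genes and 14 of 19 VLDL partners were negative, with medians of 0.01 and -0.06.

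Lpl, the lipase that empties triglyceride-rich particles, was the partner with the widest difference. It read 9.72, 9.50 and 9.55 in control, 8.01, 9.00 and 7.92 in ON F1, and 10.03, 9.63 and 9.96 in ON F2. The ON F1 pools were all below the control and ON F2 pools. Lpl rose by 1.57 ± 0.24 from ON F1 to ON F2 (limma adjusted p = 0.0116), while ON F1 against control gave -1.29 ± 0.24 (adjusted p = 0.0766). The F test over 5 groups gave an adjusted p of 0.0430. The call between ON generations was lost without ON F1 pool 7, in a fit on these groups alone and after adding the clock score as a covariate (adjusted p = 0.171). Over 24 alternatives the difference lay between 1.37 and 1.91.

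Plin2, the lipid droplet coat protein, and Mcfd2, a cargo receptor subunit of the early secretory pathway, were the genes that fell. Plin2 read 12.35, 12.33 and 12.32 in ON F1, and 11.67, 11.57 and 12.06 in ON F2, a difference of -0.57 ± 0.12 (limma adjusted p = 0.0333). Mcfd2 read 11.68, 11.61 and 11.73 in ON F1, and 11.36, 11.37 and 11.37 in ON F2, a difference of -0.31 ± 0.07 (adjusted p = 0.0365). No ON F2 pool reached an ON F1 pool for either gene. Both calls were lost with the clock score as a covariate (-0.29 with an adjusted p of 0.504 for Plin2, and -0.30 with an adjusted p of 0.389 for Mcfd2), and on leaving out some single pools, ON F1 pool 7 (adjusted p = 0.0982 and 0.105) and ON F2 pool 14 (adjusted p = 0.138 and 0.129) among them. Of 24 alternatives, the Plin2 call was lost in 7 and the Mcfd2 call in 12. The differences lay between -0.71 and -0.29 for Plin2 and between -0.33 and -0.27 for Mcfd2.

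Averaged over both lineages, 4 of 92 partners passed between generations, or 4.35% beside 3.81% of all genes, and nothing about the partners as a whole is read from that count. Scarb1, the HDL receptor, rose by 0.56 ± 0.13 (adjusted p = 0.0309) and Lpl by 0.64 ± 0.17 (adjusted p = 0.0482, limma). The Lpl average joins opposite directions, 1.57 ± 0.24 in the ON lineage and -0.29 ± 0.24 in the IUGR lineage (adjusted p = 0.681, limma). Its lineage by generation interaction was -1.86 ± 0.33 (adjusted p = 0.105, limma). Commd1, which takes part in recycling of the low density lipoprotein receptor, changed by -0.32 ± 0.07 (adjusted p = 0.0315) and Plin2 by -0.34 ± 0.08 (adjusted p = 0.0361). The Lpl call was lost in 18 of 24 alternatives, that of Plin2 in 11, and those of Scarb1 and Commd1 in 10 each. Apom, an HDL apolipoprotein, did not pass in ON F2 against ON F1, at 0.38 ± 0.09 (adjusted p = 0.0575), and neither did Lipg, encoding endothelial lipase, between generations, at -0.51 ± 0.16 (adjusted p = 0.0816).

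Further partners named by the same rule passed in no comparison. Ces1g, a carboxylesterase, differed by 1.00 ± 0.24 in IUGR F1 against control with no overlap between pools (adjusted p = 0.383). Cd36, a fatty acid and lipoprotein uptake receptor, gave 0.78 ± 0.23 in ON F1 (adjusted p = 0.176), and Prox1, a repressor in hepatocytes, gave -1.09 ± 0.30 there (adjusted p = 0.166, limma). Apoa5, an activator of lipolysis, gave 0.18 ± 0.10 in ON F1 (adjusted p = 0.451) and -0.18 ± 0.07 between generations (adjusted p = 0.164). Srebf2, a master regulator of cholesterol genes, was lower in all ON F2 pools than in all control and all IUGR F2 pools, with -0.26 ± 0.11 against control (adjusted p = 0.282) and 0.31 ± 0.11 for IUGR F2 against ON F2 (adjusted p = 0.387, limma).

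**Figure D5:**
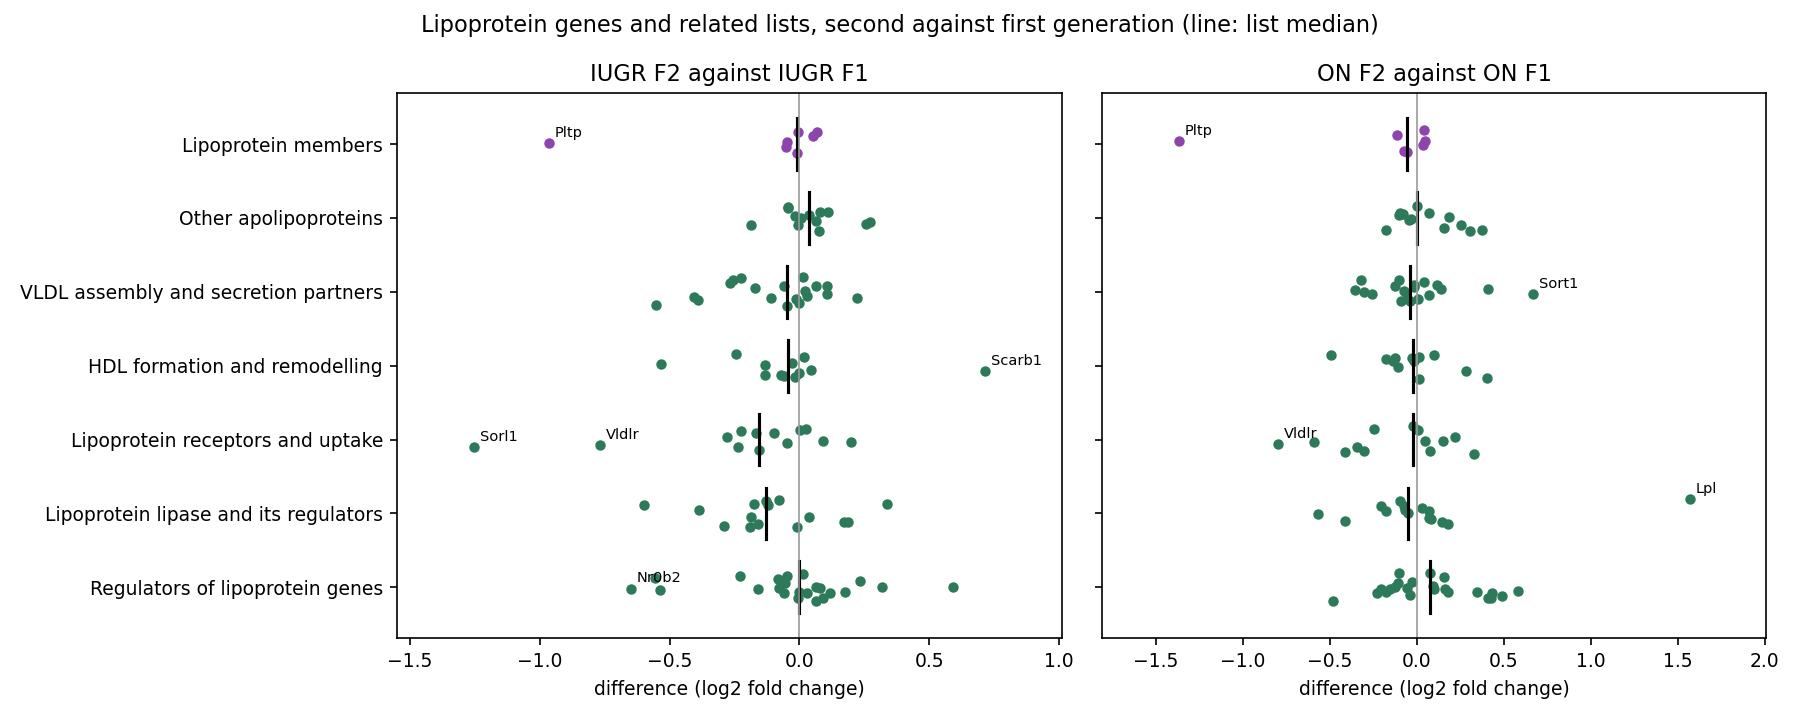
Differences between second and first generation in the IUGR and ON lineages (log2 fold change, horizontal axis) for the 7 lipoprotein genes and 6 lists of partners, with a line at each list's median and the farthest genes named. List medians lie between -0.16 (receptors and uptake, IUGR lineage) and 0.08 (regulators, ON lineage), and Pltp is the farthest of the lipoprotein genes in both lineages.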

How the data were processed

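RNA of pooled mouse liver (15 pools, 5 groups of 3, numbered 1 to 15 with no pairing) was extracted with Trizol, labelled with biotin and hybridised, per the labels' protocols. The authors deposited 1 log2 value per probe set and array, computed by RMA according to the submitters' processing notes, which give no version. RMA equalises the arrays by quantiles, which removes shifts shared by most genes. Of 45101 probe sets, 64 controls were left out, 34945 had 1 gene symbol, 932 several and 9160 none. Differences were fitted with limma 3.58.1 in R 4.3.3: 5 group means over 15 arrays, empirical Bayes without trend, two-sided, Benjamini-Hochberg over 18193 genes, threshold 0.05. The fit was tested on simulated data. The number of arrays limits the precision, with a median standard error of 0.104. Correlations used 100000 permutations of all 15 pools regardless of group (scipy 1.17.1). Named genes were the lipoprotein genes, list genes that passed, the 2 per list with the smallest F-test p, and the 3 most like each lipoprotein gene. Genes and lists were chosen with earlier results of these data known. Alternatives covered the probe set read, a filter on dim genes, centring, the prior, array weights, covariates, the groups fitted and each pool left out.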

Additional observations from a re-analysis of the deposited data

How the results depend on the processing

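No paired analysis was possible because the pools are numbered 1 to 15 with no number shared between groups. No lipoprotein gene passed in any alternative, apart from Pltp between generations without control pool 3, so that leaving out 1 pool gave 0 to 1 passing results in all. Fits on the groups compared were run for the 11 comparisons, without the F test. Among the differences followed through the alternatives, only that of Apob between ON F1 and control reversed direction. It was -0.51 with the mean of all probe sets and -1.11 with the probe set of highest variance. Mttp was followed only in IUGR F1 against control, and Apob in the remaining exposed groups was not followed in this way. Its second probe set also gave negative differences from control, -0.61 for IUGR F1, -0.03 for IUGR F2 and -1.01 for ON F2. The probe set read for Apob gave 0.03, 0.10 and 0.04 in the same order.

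Counts of all genes that passed were small and moved with the settings. In the order IUGR F1, ON F1, IUGR F2 and ON F2 against control, F2 against F1 in IUGR and in ON, IUGR against ON in F1 and in F2, interaction, lineage, generation and F test, they were 0, 4, 0, 0, 2, 261, 2, 1, 2, 0, 693 and 34. With the mean of all probe sets, IUGR F1 gave 1, ON F1 1, IUGR F2 against ON F2 0 and the interaction 1. With the probe set of highest variance, ON F1 gave 2, ON F2 1, IUGR F2 against IUGR F1 1, IUGR F1 against ON F1 1, IUGR F2 against ON F2 2, the interaction 1 and the F test 9. With a mean of at least 5, ON F1 gave 1, IUGR F2 against IUGR F1 5 and IUGR F2 against ON F2 6. With arrays shifted to 1 median, IUGR F2 against ON F2 gave 4 and the F test 52. With a trend and robust prior, ON F1 gave 9 and IUGR F2 against ON F2 2. With the clock score as a covariate, ON F1 gave 0, IUGR F2 2, ON F2 1, IUGR F2 against IUGR F1 1, ON F2 against ON F1 1, IUGR F1 against ON F1 1, IUGR F2 against ON F2 4, the interaction 1, lineage 1, generation 64 and the F test 7. With the 3′ to 5′ ratio as a covariate, ON F1 and IUGR F1 against ON F1 gave 0. With array weights, IUGR F1 gave 2, ON F1 2, IUGR F2 against IUGR F1 15, ON F2 against ON F1 101, IUGR F2 against ON F2 11 and the F test 53. Fitting only the groups compared, ON F1 gave 0, IUGR F2 against IUGR F1 1, ON F2 against ON F1 7, and both IUGR against ON comparisons 0. The cause was not tested. Leaving out 1 pool, the counts were 0 to 21 for ON F1, 0 to 1 for IUGR F2, 0 to 1 for ON F2, 0 to 4 for IUGR F2 against IUGR F1, 19 to 313 for ON F2 against ON F1, 0 to 3 for IUGR F1 against ON F1, 0 to 7 for IUGR F2 against ON F2, 2 to 4 for the interaction, 0 to 2 for lineage, 149 to 790 for generation and 7 to 40 for the F test. The lowest count between ON generations, 19, came without ON F1 pool 7, and the lowest between generations, 149, without IUGR F1 pool 4.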

Other observations

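Some lipoprotein genes lie side by side in the genome, and their levels were set beside those of their neighbours as a description. On chromosome 9, in the order Apoa1, Apoc3, Apoa4 and Apoa5, none of the 6 pairs passed a permutation test over 15 pools, with Pearson r between -0.27 and 0.53. On chromosome 7, in the order Apoc2, Apoc4, Apoc1 and Apoe, 2 of 6 pairs passed on Pearson r. Apoc1 and Apoe had an r of 0.84 (permutation p = 8e-05, adjusted p = 0.00048) and a Spearman rho of 0.82 (adjusted permutation p = 0.00075), with an r of 0.72 within groups and 0.84 without the 2 pools farthest from the median of Apoc1. Apoc4 and Apoc1 had an r of 0.82 (adjusted permutation p = 0.00069), a rho of 0.86 (adjusted permutation p = 0.00066), an r of 0.89 within groups and 0.79 without the 2 farthest pools. Apoc4 and Apoe had an r of 0.56 (adjusted permutation p = 0.0585) and a rho of 0.61 (adjusted permutation p = 0.0334). Apoc2, at the other end of the chromosome 7 cluster, had r values between -0.20 and 0.11 with its 3 neighbours, while Apoc2 and Apoa4, on different chromosomes, had an r of 0.83.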
